A study of Mus musculus with 8 samples.

Results

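The SLC25 genes encode the mitochondrial solute carriers. They were taken here as every protein-coding gene of the deposited table whose symbol is Slc25a followed by a number, which gave 47 genes of the 54532 listed. Of these, 38 passed a filter on low values (at least 0.5 FPKM and 10 reads in at least 2 libraries) and were tested, while 9 did not. FPKM are fragments divided by gene length and library size, so levels set side by side between genes depend on the deposited gene lengths. Related carriers with other symbols, the uncoupling proteins Ucp1, Ucp2 and Ucp3 and the carrier-like Mtch1 and Mtch2, are not among the 47 and were kept as a separate list.

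Most SLC25 proteins sit in the inner mitochondrial membrane and exchange one metabolite for another between matrix and cytosol. They bring in ADP, phosphate, acylcarnitines, amino acids and cofactors, and let out ATP. The heart makes nearly all of its ATP in mitochondria, so that ADP/ATP exchange, phosphate uptake, the carnitine shuttle and the malate-aspartate shuttle all pass through carriers of this family there.

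The libraries were made from hearts of C57BL/6 mice in 4 groups of 2 libraries each: wild type after TAC, wild type after sham surgery, Piezo1-Cko after TAC and Piezo1-Cko after sham surgery. TAC is commonly short for transverse aortic constriction, surgery that makes the left ventricle pump against a narrowed aorta. Piezo1 encodes a mechanically gated cation channel. The labels give neither the cells nor the driver of the Piezo1-Cko allele, nor age, time after surgery or whether each library is its own animal; the p-values therefore reflect library-to-library spread, which may be technical.

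The libraries held 15574769 to 17313084 reads, of which mitochondrially encoded genes took 17.6% to 24.4%. Piezo1 was at 5.24 and 3.89 FPKM in Piezo1-Cko TAC hearts, against 5.38 and 5.83 in wild-type TAC hearts. It was at 3.83 and 3.23 FPKM in Piezo1-Cko sham hearts, against 2.35 and 3.09 in wild-type sham hearts. Piezo1 did not pass in either comparison of the genotypes (limma, adjusted p = 0.652 under TAC and 0.774 under sham), so whole-heart RNA did not check the genotype labels. Clock genes set 3 libraries apart. Dbp, a clock output gene, was at 2.37 FPKM in WT TAC replicate 1, 3.22 in WT sham replicate 1 and 1.94 in Cko sham replicate 1, and at 23.0 to 51.1 in the other 5. Results that move without these libraries are given with and without them.

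Markers of heart muscle moved with TAC. The 12 cardiomyocyte markers were Myh6, Actc1, Tnnt2, Tnni3, Myl2, Myl3, Ttn, Ryr2, Pln, Mb, Actn2 and Cox6a2. Of these, 8 were lower in the mean TAC response (the average of the TAC responses of both genotypes). Over all genes tested 13.5% were lower in that response and 11.9% higher. The summed level of the 12 markers was 17929.6 to 22362 FPKM over the 4 TAC libraries and 30462 to 33502 over the 4 sham libraries. Of 8 fibroblast markers 5 were higher, and their sum was 426 to 896 FPKM in TAC and 191 to 326 in sham libraries. All 8 macrophage markers were higher, at a summed 622 to 989.7 FPKM in TAC against 400.1 to 472 in sham libraries. Of 8 endothelial markers 1 was lower, and of 8 smooth muscle and pericyte markers 1 was higher, both near the share of all genes. No B and plasma cell, brown adipocyte or liver marker passed (limma, adjusted p under 0.05), with 4, 4 and 1 of these markers tested. B and plasma cell markers reached a summed 26.7 FPKM in a wild-type TAC library, against at most 5.64 in the 7 others. The brown fat marker Ucp1 was at 0 in 7 libraries, while the 8 brown adipocyte markers together summed to 234 to 536 FPKM. That list also holds Fabp4 and Ppargc1a, the latter read below beside regulators of mitochondrial genes. The sum alone therefore does not show brown fat cells. In bulk tissue, fewer cells of a type and less RNA per cell cannot be told apart.

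Levels within the family spanned more than 3 orders of magnitude. Slc25a4, the ADP/ATP carrier of heart and skeletal muscle, averaged 2595 FPKM over the 8 libraries. Next came the phosphate carrier Slc25a3 at 260 FPKM, the 2-oxoglutarate/malate carrier Slc25a11 at 208 and a second ADP/ATP carrier, Slc25a5, at 191. Below these 4, levels dropped to 48.9 FPKM for Slc25a34, 42.6 for Slc25a39 and 32.4 for Slc25a20. Slc25a13 at 24.9 and Slc25a12 at 20.4 FPKM complete the 9 genes above 20. A further 15 tested genes averaged 5 to 20 FPKM and 14 averaged less. Single-library ranges separate these neighbours only in part. Slc25a3, Slc25a11 and Slc25a5 overlap, as do Slc25a34, Slc25a39 and Slc25a20, while every Slc25a4 value exceeds every value of the other carriers. Slc25a5 lay above Slc25a11 in each TAC library and below it in each sham library.

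**Figure D1:**
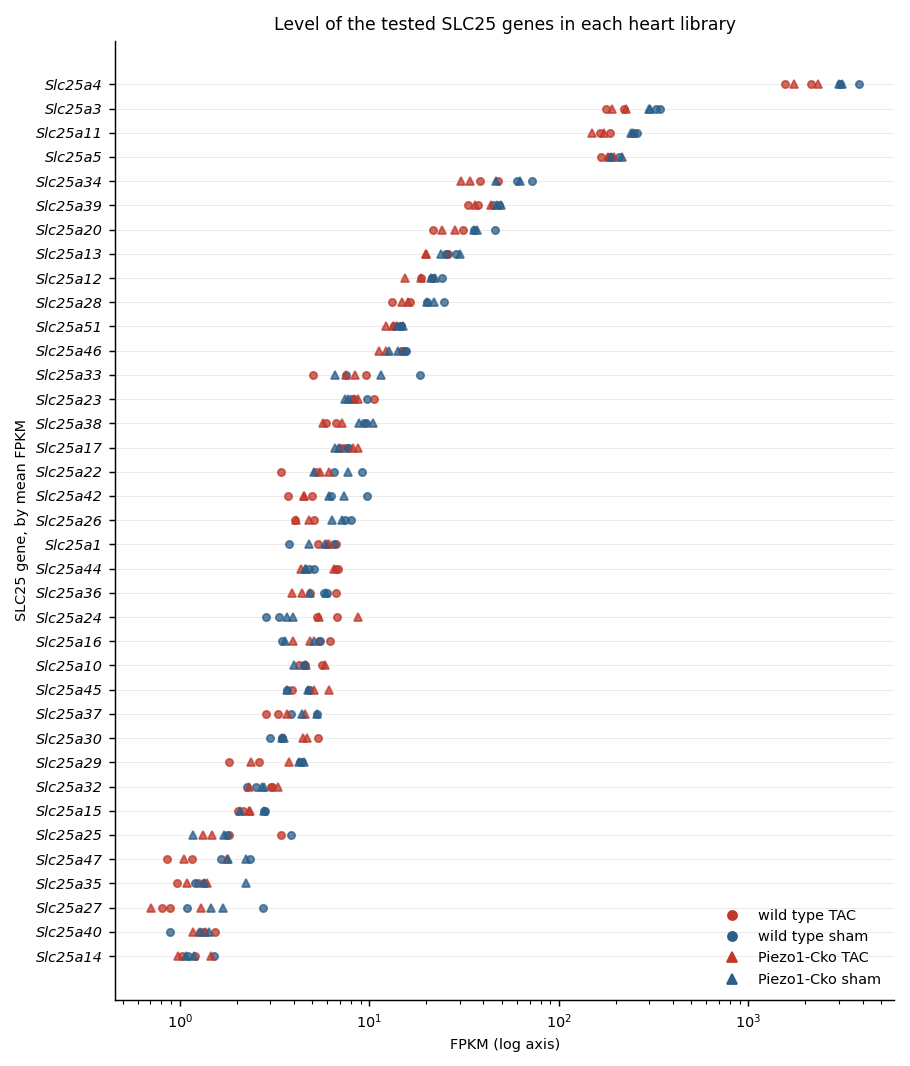
FPKM on a log axis for 37 of the 38 tested SLC25 genes, ordered by mean, with 1 point per library (red for TAC, blue for sham; circles for wild type, triangles for Piezo1-Cko). Slc25a4 lies far above the rest, with its 4 TAC libraries at 1559 to 2327 FPKM and its 4 sham libraries at 3004 to 3831.

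Of the 9 genes that were not tested, Slc25a53 was highest, at 0.203 to 0.365 FPKM. Slc25a31, the ADP/ATP carrier of male germ cells, was at 0.051 to 0.399 FPKM. Slc25a18, Slc25a43 and Slc25a2 had at most 12 reads in any library, and Slc25a21, Slc25a41 and Slc25a48 at most 3. Slc25a54 had no read in any of the 8 libraries.

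In the mean TAC response, 13 of the 38 tested genes were lower and 1 was higher (limma, adjusted p under 0.05 over 13928 genes), while over all genes tested 13.5% were lower and 11.9% higher, 25.4% in all. The 4 TAC libraries lay wholly below the 4 sham libraries for 11 members and wholly above for 1, against 14.6% and 13.1% of all genes. The median log2 fold change of the 38 was -0.24, against 0.01 over all genes tested. Scaled to total reads it was -0.03, against 0.19 over all genes tested. In wild type 6 were lower and 1 higher (all genes, 7.65% lower and 5.57% higher, 13.2% in all). The wild-type median was -0.16, against 0.01 over all genes. Under that scaling it became 0.01, against 0.20 over all genes. All 7 wild-type calls were lost without any 1 of WT TAC replicate 1, WT sham replicate 1, WT sham replicate 2, Cko sham replicate 1 and Cko sham replicate 2, when the 4 wild-type libraries were fitted alone, and when low values were left unfiltered. In wild type 20 members lay without overlap below sham and 4 above, against 30.9% and 31.3% of all genes. In Piezo1-Cko none passed (limma; all genes 1.49%, 0.948% higher and 0.546% lower; limma-voom on reads also found 0). There 13 members had an unadjusted p under 0.05 (all genes 21.8%), 11 of them lower (all genes 11.2%). Of the members, 19 lay without overlap below sham and 7 above (all genes 28.3% and 28%). The Piezo1-Cko median was -0.20, against -0.001 over all genes. Scaled to total reads it became -0.01, against 0.18 over all genes. The 14 genes that passed kept their direction in all 20 alternatives, but 5 of them, Slc25a20, Slc25a28, Slc25a39 and Slc25a47 among them, no longer passed when scaled to total reads. Without the 3 libraries low in Dbp, which leaves 5 libraries and 1 residual degree of freedom, none of the 14 passed, with adjusted p from 0.05005 to 0.290. In that fit the 13 lower genes had log2 changes of -0.80 to -0.33. The 14 were picked in a fit that holds these same 5 libraries, so these changes are not an independent check.

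**Figure D2:**
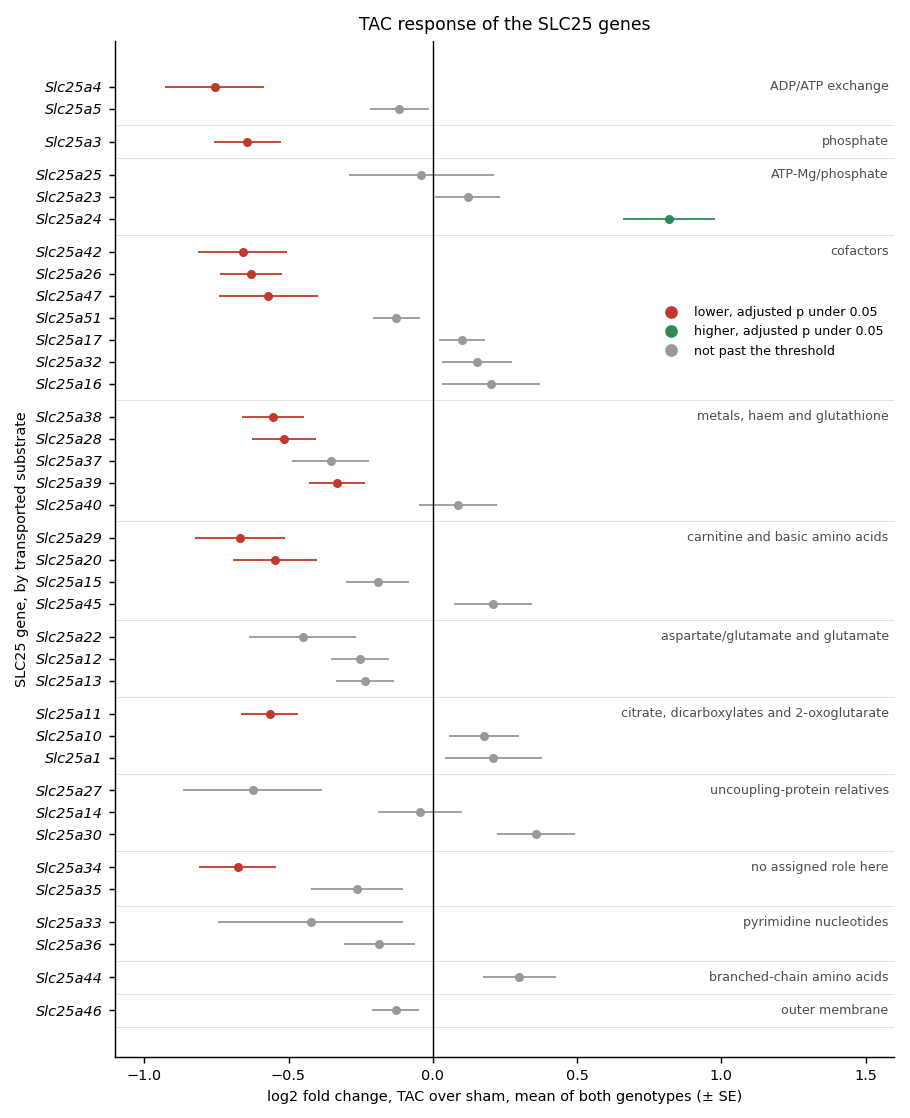
log2 fold change of 37 of the 38 tested SLC25 genes, TAC over sham, averaged over both genotypes, with its standard error, grouped by transported substrate. Red points (12 genes) and the green point (Slc25a24) passed an adjusted p of 0.05, grey points did not.

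ADP/ATP exchange is shared by 2 of the tested genes. Slc25a4 was at 1559 and 2142 FPKM in wild-type TAC hearts, against 3040 and 3831 in wild-type sham hearts. It was at 1730 and 2327 FPKM in Piezo1-Cko TAC hearts, against 3004 and 3124 in Piezo1-Cko sham hearts. Every TAC library lay below every sham library. Its log2 fold change was -0.76 ± 0.17 (SE) in the mean TAC response, adjusted p = 0.0199, a 1.69-fold lower level. In wild type alone it was -0.90 ± 0.24, adjusted p = 0.0499, and in Piezo1-Cko -0.61 ± 0.24, adjusted p = 0.198. Slc25a5, the carrier of dividing and many other cells, was at 167 and 189 FPKM in wild-type TAC hearts, against 185 and 207 in wild-type sham hearts. In Piezo1-Cko it was at 181 and 195 FPKM after TAC, against 188 and 214 after sham. These groups overlapped, and its mean response of -0.12 ± 0.10 did not pass, adjusted p = 0.437.

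Slc25a5 made up 7.75% to 9.70% of the summed FPKM of Slc25a4, Slc25a5 and Slc25a31 in the 4 TAC libraries, against 5.12% to 6.42% in the 4 sham libraries. The ratio of Slc25a4 to Slc25a5 was 9.31 to 11.9 in TAC and 14.6 to 18.5 in sham libraries. A ratio within a library does not depend on its scaling. The pair was chosen with its values known, so these ranges are a description, and the difference between the 2 responses was not tested. A processed pseudogene copy, Slc25a5-ps, had at most 1 read per library; how reads shared between copies were counted is not given in the sources used here.

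Slc25a4 set the level of the whole family. It took 66.1% to 72.2% of the summed SLC25 FPKM in TAC libraries, against 72.8% to 76.1% in sham libraries. The sum over the 47 genes was 2360 to 3221 FPKM in the 4 TAC libraries and 4073 to 5038 in the 4 sham libraries. Without Slc25a4 the sum was 801 to 917 FPKM in TAC and 1069 to 1206 in sham libraries, again without overlap. As a share of the FPKM of all genes, the family took 0.616% to 0.719% in TAC against 0.734% to 0.958% in sham libraries.

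Printed here are 4 windows around transcription start sites. They belong to the abundant ADP/ATP carrier that was lower, its paralog that did not pass, the 1 gene that was higher, and Slc25a29, which was lower too. The Slc25a29 window covers the stretch to its neighbour Slc25a47 in the deposited coordinates. Each runs from 250 bases before to 50 after the RefSeq start (GRCm38.p6), read 5′ to 3′ on the gene's strand, with CCAAT, or ATTGG where the box lies on the other strand, in capitals. Slc25a4 lies on the minus strand (chr8:46211013-46211312), Slc25a5 on the plus strand (chrX:36795347-36795646), Slc25a24 on the plus strand (chr3:109122899-109123198) and Slc25a29 on the minus strand (chr12:108835827-108836126). The Slc25a5 window ends before the deposited start of that gene, 36795651. Its last bases were in no GENCODE M21 transcript of Slc25a5, while those of the other printed windows were in a transcript of their gene.
Slc25a4: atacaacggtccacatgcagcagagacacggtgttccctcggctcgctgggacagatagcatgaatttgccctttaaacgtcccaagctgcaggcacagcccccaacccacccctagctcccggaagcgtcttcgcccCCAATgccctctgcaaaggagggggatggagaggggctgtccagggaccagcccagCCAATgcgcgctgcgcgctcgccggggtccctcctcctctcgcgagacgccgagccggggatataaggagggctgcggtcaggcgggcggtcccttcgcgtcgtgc
Slc25a5: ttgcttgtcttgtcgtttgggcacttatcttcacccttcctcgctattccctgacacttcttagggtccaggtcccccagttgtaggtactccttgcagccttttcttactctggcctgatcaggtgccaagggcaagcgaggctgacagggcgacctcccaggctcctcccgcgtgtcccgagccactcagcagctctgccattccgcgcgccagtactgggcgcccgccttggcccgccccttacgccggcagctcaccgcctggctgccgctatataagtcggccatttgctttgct
Slc25a24: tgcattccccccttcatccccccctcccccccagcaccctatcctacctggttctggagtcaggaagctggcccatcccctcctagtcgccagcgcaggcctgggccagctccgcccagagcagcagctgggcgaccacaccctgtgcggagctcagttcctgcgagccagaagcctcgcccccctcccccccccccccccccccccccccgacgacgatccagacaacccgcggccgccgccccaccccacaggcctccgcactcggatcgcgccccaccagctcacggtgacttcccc
Slc25a29: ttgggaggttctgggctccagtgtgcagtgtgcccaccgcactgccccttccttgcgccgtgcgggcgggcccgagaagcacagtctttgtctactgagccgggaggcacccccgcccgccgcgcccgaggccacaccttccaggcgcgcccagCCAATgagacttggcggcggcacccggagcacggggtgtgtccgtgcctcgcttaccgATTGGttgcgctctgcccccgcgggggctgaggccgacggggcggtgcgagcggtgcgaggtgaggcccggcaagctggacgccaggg
The Slc25a4 window holds CCAAT at -112 and -56 relative to the start, the Slc25a29 window holds CCAAT at -96 and ATTGG at -38, and the other windows hold neither. Windows were found for 36 of the 47 genes. On either strand, CCAAT was in 19 of the 36 (52.8%), against 41.1% of all 27025 genes with a window and 42.6% of the genes tested, and in 7 of the 11 lower genes with a window. The TATAAA motif was in 2 of the 36, against 15.7% of all genes and 9.1% of the genes tested. These were Slc25a18 and Slc25a21, neither of them tested, so no tested member with a window held it. The estrogen-related receptor motif TNAAGGTCA and the palindromic NRF1 motif were each in 0 of the 36, against 1.43% and 1.07% of all genes and 0.869% and 2.25% of the genes tested. These are letter matches in a short window and say nothing of binding.

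Slc25a3 carries the phosphate used for ATP synthesis into the matrix. It was at 176 and 221 FPKM in wild-type TAC hearts, against 327 and 340 in wild-type sham hearts. In Piezo1-Cko hearts it was at 191 and 227 FPKM after TAC, against 298 and 302 after sham. No TAC library reached a sham library. Slc25a3 fell by 0.64 ± 0.12 on the log2 scale in the mean TAC response (adjusted p = 0.00985) and by 0.76 in wild type (adjusted p = 0.0298). Unlike the ADP/ATP pair, the ratio of Slc25a4 to Slc25a3 overlapped, at 8.85 to 10.3 in TAC and 9.29 to 11.3 in sham libraries.

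Slc25a11, which exchanges 2-oxoglutarate for malate in the malate-aspartate shuttle, was at 164 and 186 FPKM in wild-type TAC hearts, against 248 and 259 in wild-type sham hearts. Its levels in Piezo1-Cko hearts were 150 and 173 FPKM after TAC, against 240 and 248 after sham. The groups did not overlap. It fell by 0.57 ± 0.10 in the mean response (adjusted p = 0.00939) and by 0.54 in wild type (adjusted p = 0.0481), and had the smallest adjusted p of the family in Piezo1-Cko, 0.0766 at -0.60. Slc25a11, with 5848 to 8033 reads, overlaps Rnf167 on the other strand, which had 561 to 1060 reads and was lower too (-0.52 ± 0.16, adjusted p = 0.0486). Whether counting used the strand is not stated, so reads of such pairs cannot be told apart.

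The aspartate/glutamate carriers of the same shuttle did not pass. Slc25a12 was at 18.8 and 21.5 FPKM in wild-type TAC against 21.3 and 24.1 in wild-type sham hearts, and at 18.8 and 15.5 in Piezo1-Cko TAC against 21.1 and 22.2 in Piezo1-Cko sham hearts. Its mean response was -0.25, adjusted p = 0.105. Slc25a13 was at 25.7 and 26.1 FPKM in wild-type TAC against 25.3 and 28.6 in wild-type sham hearts, and at 19.9 in both Piezo1-Cko TAC libraries against 23.8 and 30.1 in Piezo1-Cko sham hearts. Its mean response was -0.24, adjusted p = 0.122. The glutamate carrier Slc25a22 had a log2 change of -0.79 in wild type and -0.11 in Piezo1-Cko, neither past the threshold. Of 6 shuttle enzymes (4 of the malate-aspartate and 2 of the glycerophosphate shuttle) 4 were lower in the mean response, against 13.5% of all genes tested. These were Mdh1 (-0.58), Mdh2 (-0.72), Got1 (-0.57) and Got2 (-0.51). The citrate carrier Slc25a1 and the dicarboxylate carrier Slc25a10 had log2 changes of 0.21 and 0.18 that did not pass.

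Slc25a20 carries acylcarnitines into the matrix for fatty acid oxidation. Its level was 21.6 and 31.4 FPKM in wild-type TAC hearts, against 46.3 and 35.7 in wild-type sham hearts. It was 24.2 and 28.3 FPKM in Piezo1-Cko TAC hearts, against 35.4 and 36.8 in Piezo1-Cko sham hearts. All 4 TAC values lay under all 4 sham values. The mean response was -0.55 ± 0.15 (adjusted p = 0.0321), while neither genotype passed alone (-0.63, adjusted p = 0.0784 in wild type; -0.46, adjusted p = 0.246 in Piezo1-Cko). Scaled to total reads its adjusted p was 0.0838. Of 5 carnitine shuttle enzymes 4 were lower with it in the mean response, against 13.5% of all genes tested. These were Cpt1b, the muscle form of the outer-membrane transferase (-1.02), Cpt2 (-0.84), Crat (-0.68) and the plasma membrane carnitine transporter Slc22a5 (-0.36).

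Slc25a29, a carrier of basic amino acids, had 1.82 and 2.61 FPKM in wild-type TAC hearts, against 4.40 and 4.33 in wild-type sham hearts. Piezo1-Cko hearts had 2.37 and 3.78 FPKM after TAC, against 4.23 and 4.54 after sham. The groups did not overlap, and the gene passed in wild type (-0.86, adjusted p = 0.0438) and in the mean response (-0.67 ± 0.16, adjusted p = 0.0214). Its neighbour Slc25a47, which in the deposited coordinates starts 162 bases away in the opposite direction on chromosome 12, had 1.15 and 0.854 FPKM in wild-type TAC against 1.65 and 2.34 in wild-type sham hearts. In Piezo1-Cko it had 1.05 and 1.76 FPKM after TAC, against 1.79 and 2.23 after sham. Slc25a47 passed in the mean response (-0.57 ± 0.17, adjusted p = 0.0472) although a Piezo1-Cko TAC library lay above a wild-type sham library, and it rests on 45 to 102 reads. The window printed above for Slc25a29 covers the whole gap between the 2 genes, while RefSeq places the start of Slc25a47 farther along the chromosome. The ornithine carrier Slc25a15 and Slc25a45 did not pass (-0.19 and 0.21).

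Several carriers of cofactors were among the lower genes. Slc25a26, which imports S-adenosylmethionine, was at 4.06 and 5.09 FPKM in wild-type TAC hearts, against 7.96 and 7.45 in wild-type sham hearts. Its Piezo1-Cko values were 4.08 and 4.78 FPKM after TAC, against 6.34 and 7.16 after sham. With a mean response of -0.63 ± 0.11 it had the smallest adjusted p of the family, 0.00861, and it passed in wild type (-0.70, adjusted p = 0.0300). It had 362 to 544 reads and overlaps Lrig1 on the other strand, which had 360 to 853 reads and a mean response of 0.00 ± 0.17.

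Slc25a42, a coenzyme A carrier, was at 3.71 and 4.97 FPKM in wild-type TAC against 9.68 and 6.28 in wild-type sham hearts, and at 4.50 and 4.53 in Piezo1-Cko TAC against 6.16 and 7.32 in Piezo1-Cko sham hearts. It fell by 0.66 ± 0.16 in the mean response, adjusted p = 0.0222. Its TAC libraries did not overlap its sham libraries. The NAD carrier Slc25a51 (-0.13), the peroxisomal Slc25a17 (0.10), the folate carrier Slc25a32 (0.15) and Slc25a16 (0.20) did not pass.

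Among the 5 carriers of iron, glycine for haem, and glutathione, 3 were lower in the mean response, against 13.5% of all genes tested. Slc25a28, an iron importer, was at 16.4 and 13.2 FPKM in wild-type TAC against 20.1 and 24.9 in wild-type sham hearts, and at 14.8 and 16.02 in Piezo1-Cko TAC against 22.0 and 20.2 in Piezo1-Cko sham hearts. Its log2 change was -0.52 ± 0.11 in the mean response (adjusted p = 0.0168) and -0.59 in wild type (adjusted p = 0.0487). Slc25a38, which supplies glycine for haem synthesis, was at 5.87 and 6.70 FPKM in wild-type TAC against 9.63 and 9.34 in wild-type sham hearts, and at 5.71 and 7.16 in Piezo1-Cko TAC against 10.4 and 8.80 in Piezo1-Cko sham hearts. Its mean response was -0.55 ± 0.11, adjusted p = 0.0126. Both genes had TAC and sham libraries that did not overlap.
Slc25a39, a glutathione importer, was at 33.3 and 37.6 FPKM in wild-type TAC against 45.1 and 48.2 in wild-type sham hearts, and at 36.3 and 43.9 in Piezo1-Cko TAC against 47.1 and 49.5 in Piezo1-Cko sham hearts. It fell by 0.33 ± 0.10, adjusted p = 0.0434, the smallest change of the 14 that passed. The other glutathione carrier, Slc25a40, had 0.09 and the iron importer of developing red cells, Slc25a37, had -0.35; neither passed.

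Slc25a34, to which no substrate is assigned here, was the fifth most abundant carrier. It was at 38.4 and 47.7 FPKM in wild-type TAC hearts, against 59.8 and 72.1 in wild-type sham hearts. It was at 30.4 and 33.9 FPKM in Piezo1-Cko TAC hearts, against 46.7 and 62.3 in Piezo1-Cko sham hearts. Within each genotype the groups did not overlap, but across genotypes the upper wild-type TAC library exceeded the lower Piezo1-Cko sham library. The mean response was -0.68 ± 0.13 (adjusted p = 0.0126).

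Slc25a24 was the 1 member that rose. It is a calcium-regulated carrier that exchanges ATP-Mg for phosphate. Its level was 5.30 and 6.77 FPKM in wild-type TAC hearts, against 2.85 and 3.35 in wild-type sham hearts. In Piezo1-Cko hearts it was 8.76 and 5.42 FPKM after TAC, against 3.94 and 3.67 after sham. Every TAC library exceeded every sham library. It rose by 0.82 ± 0.16 in the mean response (adjusted p = 0.0122) and by 0.85 in wild type (adjusted p = 0.0473), with 0.78 and an adjusted p of 0.106 in Piezo1-Cko. The related Slc25a23 and Slc25a25 had mean responses of 0.12 and -0.04, and neither passed. The ratio of Slc25a24 to Slc25a23 overlapped between TAC and sham libraries, at 0.499 to 1.00 and 0.292 to 0.529. Fibroblast and macrophage markers were higher in the same libraries, and their part in the Slc25a24 result was not tested.

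**Figure D3:**
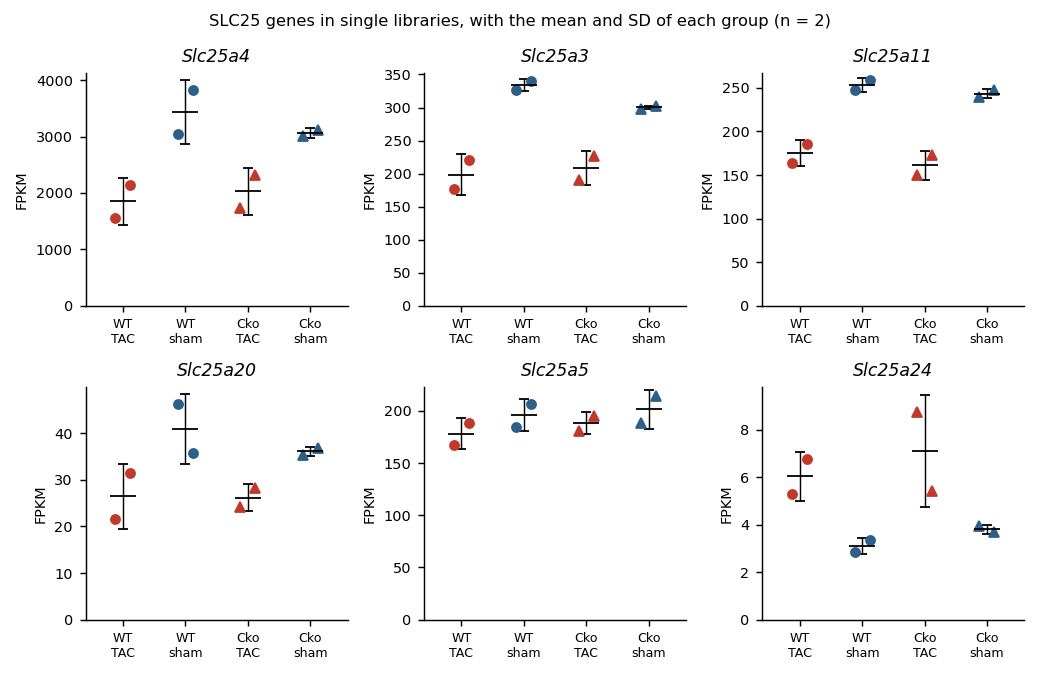
FPKM of 6 carriers in each library, with the mean and SD of each group of 2 (red for TAC, blue for sham; circles for wild type, triangles for Piezo1-Cko). Slc25a4, Slc25a3, Slc25a11 and Slc25a20 had all 4 TAC libraries below all 4 sham libraries, Slc25a24 all above, and Slc25a5 overlapped.

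The members that remain did not pass. The uncoupling-protein relatives Slc25a27, Slc25a14 and Slc25a30 had mean responses of -0.62, -0.05 and 0.36, the first at 0.703 to 2.74 FPKM. The branched-chain amino acid carrier Slc25a44 had 0.30, the outer-membrane protein Slc25a46 -0.13, and Slc25a35 -0.26. Slc25a36 and Slc25a33, carriers of pyrimidine nucleotides, had -0.19 and -0.42. Of the related proteins with other symbols, Ucp2 was higher (0.70, adjusted p = 0.0203) and Mtch2 lower (-0.42, adjusted p = 0.0193), while Ucp3 ranged from 2.54 to 27.6 FPKM and did not pass (-0.90, adjusted p = 0.193).

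Slc25a33 varied most between libraries of 1 group, with an SD of 0.60 on the log2 scale, against a median of 0.19 over the 38 members and 0.18 over all genes tested. It was at 5.04 and 9.61 FPKM in wild-type TAC, 7.57 and 18.4 in wild-type sham, 7.56 and 8.44 in Piezo1-Cko TAC, and 6.61 and 11.5 in Piezo1-Cko sham hearts. In each of the 3 groups that hold a library low in Dbp, that library, replicate 1, had the lower Slc25a33 value. Replicate 1 was also the lower in Piezo1-Cko TAC, which holds no such library, so the value follows the replicate number as well. This order was not particular to Slc25a33. Replicate 1 was below replicate 2 in every group for the abundant Slc25a4, Slc25a3, Slc25a11, Slc25a5, Slc25a34 and Slc25a39, and for Slc25a27. For others, such as Slc25a20, it was not. Slc25a25, with the next largest SD of 0.45, was at 1.18 to 1.70 FPKM in the 4 Piezo1-Cko libraries, and at 1.81 and 3.42 in wild-type TAC and 1.77 and 3.87 in wild-type sham hearts. The steadiest member was the peroxisomal Slc25a17, with an SD of 0.04.

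The responses were also read by abundance. All 9 members above 20 FPKM had a negative mean response, 6 of them past the threshold, with a median of -0.55. Of the 2092 genes tested at that level, 1417 had a negative response, 699 were lower and 215 higher, with a median of -0.21. In the band from 5 to 20 FPKM, 5 of 15 members were lower and 1 higher, with a median of -0.19. Of all 4214 genes of that band 628 were lower and 502 higher, with a median of -0.003. Below 5 FPKM, 2 of 14 members were lower and 0 higher, with a median of -0.04. Of all 7622 genes there 553 were lower and 940 higher, with a median of 0.05.

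The 12 cardiomyocyte markers had a median log2 change of -0.69 in the mean response, and the 13 lower carriers had -0.76 to -0.33. The mean log2 level of the 12 markers was 9.26 to 9.60 in the 4 TAC and 9.99 to 10.2 in the 4 sham libraries. Relative to that mean, 12 of the 13 lower members overlapped between TAC and sham libraries, and Slc25a39 was higher in TAC without overlap. Slc25a3, for example, lay at -1.87 to -1.68 in TAC and -1.77 to -1.76 in sham libraries. On this scale 18 of the 38 members were higher in TAC without overlap and 0 were lower, against 62.5% and 1.08% of all genes tested. The marker mean is itself lower in TAC, which raises every gene in TAC alike on this scale. Slc25a24 was 1.44 and Slc25a5 0.51 higher relative to the markers. The part of the markers' change in the carriers' results was not tested.

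**Figure D4:**
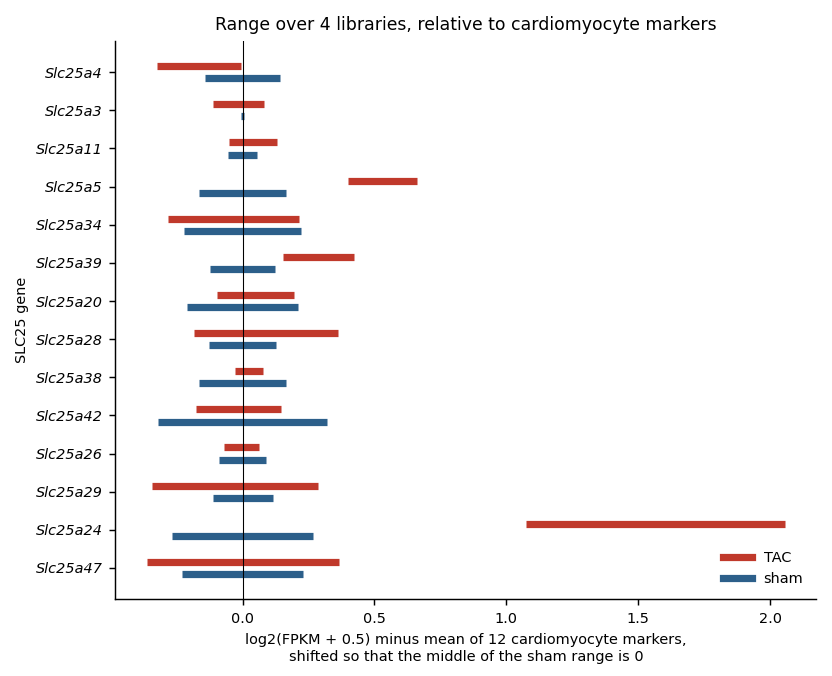
Range over the 4 TAC (red) and 4 sham (blue) libraries of log2(FPKM + 0.5) minus the mean of 12 cardiomyocyte markers, for 13 of the 14 members that passed and Slc25a5, each shifted so that the middle of its sham range is 0. Slc25a5, Slc25a39 and Slc25a24 lie above their sham range in TAC, and the other 11 overlap it.

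Genes that work beside the carriers were read from 6 lists, against 13.5% lower and 11.9% higher over all genes tested. Of 8 genes of ATP synthase and phosphocreatine transfer 7 were lower in the mean response, among them the ATP synthase subunits Atp5o (-0.85), Atp5a1 (-0.66) and Atp5c1 (-0.70). Of 3 outer-membrane channels, which pass metabolites to and from the carriers, Vdac3 (-0.62) and Vdac1 (-0.48) were lower. Of 15 genes that import and insert carrier proteins 3 were lower, a share near that of all genes: Timm13 (-0.52), Timm8b (-0.37) and Timm9 (-0.43), which belong to the chaperones of the intermembrane space. Of 7 inner-membrane carriers of other families Mpc2, a subunit of the pyruvate carrier (-0.80), and Sfxn4 (-0.70) were lower and Sfxn3 (0.51) higher. In a list of 8 genes of the calcium uniporter and other mitochondrial calcium transport Smdt1 (-0.59) and Letm1 (-0.46) were lower and the inhibitory subunit Mcub (0.57) higher. Of 10 regulators of mitochondrial genes 1 passed, the nuclear receptor Esrra, at 54.0 and 68.2 FPKM in wild-type TAC against 97.1 and 97.7 in wild-type sham hearts, and at 59.6 and 65.4 in Piezo1-Cko TAC against 87.0 and 90.7 in Piezo1-Cko sham hearts (-0.59, adjusted p = 0.00893). The coactivator Ppargc1a had -0.21 and did not pass, adjusted p = 0.462.

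Whether the TAC response depends on Piezo1 was asked by the interaction (the difference between the TAC responses, Piezo1-Cko less wild type). No member passed (limma, 0.00718% of all genes; limma-voom 0), and 1 had an unadjusted p under 0.05 (all genes 4.77%), Slc25a17. Slc25a17 was at 8.74 and 8.23 FPKM in Piezo1-Cko TAC against 6.60 and 6.95 in Piezo1-Cko sham hearts, and at 7.02 and 7.34 in wild-type TAC against 7.76 and 7.72 in wild-type sham hearts. Its interaction was 0.41 ± 0.16, adjusted p = 0.911. The responses had the same sign in both genotypes for 35 of the 38 members (92.1%, against 77.0% of all genes tested), negative for 26 and positive for 9. All 14 members that passed in the mean response had the same sign in both, and 12 of them were larger in size in wild type. The 14 were picked on the average of these same responses, so their agreement in sign is largely built in. No share of all genes was set beside the 12. Over all genes 1842 passed in wild type and 208 in Piezo1-Cko, so the 12 are not read as particular to the carriers. A call in wild type beside none in Piezo1-Cko does not show that the responses differ.

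**Figure D5:**
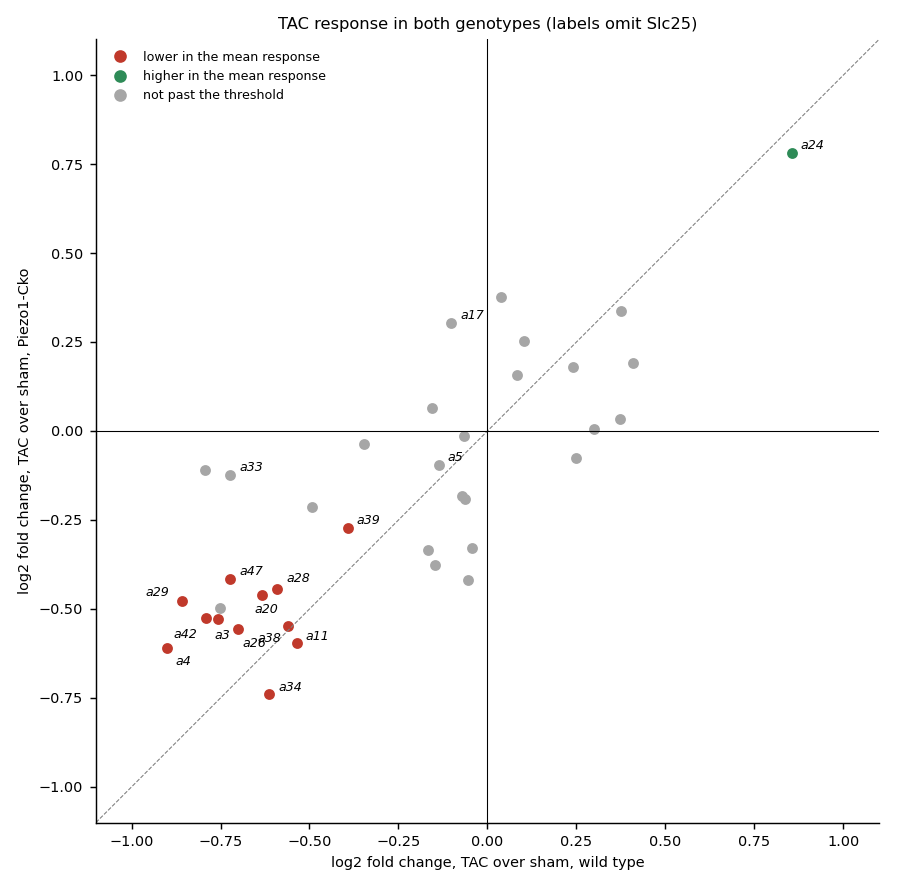
log2 fold change of TAC over sham in wild type (x) and in Piezo1-Cko (y) for 37 of the 38 tested members, with the line of equal response dashed. The 12 lower members drawn (red) lie in the lower left and Slc25a24 (green) in the upper right.

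Piezo1-Cko and wild-type hearts were also compared within each surgery. Under TAC no member passed (limma, 0% of all genes; limma-voom 0), and 3 had an unadjusted p under 0.05 (all genes 9.11%), all lower (all genes 4.71%). The smallest belonged to Slc25a46, a protein of mitochondrial shape in the outer membrane, at 12.2 and 11.3 FPKM in Piezo1-Cko TAC against 14.8 in both wild-type TAC libraries (-0.32 ± 0.12, adjusted p = 0.526). Slc25a13 (-0.37, adjusted p = 0.532) and Slc25a36 (-0.41, adjusted p = 0.545) were the others. Under sham surgery no member passed (limma, 0.0215% of all genes; limma-voom 0) and 0 had an unadjusted p under 0.05 (all genes 7.68%). Slc25a25 came nearest, at 1.70 and 1.18 FPKM in Piezo1-Cko sham against 1.77 and 3.87 in wild-type sham hearts (-0.71 ± 0.36, adjusted p = 0.716). The median over the 38 members was 0.07 under TAC and -0.07 under sham. With 2 libraries a group, a p above the threshold does not show that the genotypes are alike.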

How the data were processed

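RNA from mouse hearts (Trizol, NEBNext Ultra libraries, per the labels' protocols) was sequenced. Per the submitters' processing notes, featureCounts 1.5.0-p3, Bowtie 0.12.2 and CASAVA 1.8 were used; mm10 and mm8 are both listed as builds, without roles. The authors deposited 1 table of FPKM; multiplied by gene length, the values of a library are whole multiples of a constant (100% of values within 0.01 of a read), which gave the reads. The library size implied by the steps was 0.886 to 1.10 times the reads and higher in TAC, so the deposited FPKM are scaled between libraries. For 44 of the 47 members the coordinates equal GENCODE M21 (GRCm38).

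limma 3.58.1 in R 4.3.3 (trend, robust) was fitted to log2(FPKM + 0.5), a scale that understates the change of low genes, over all 8 libraries with 1 term per group (4 residual degrees of freedom). P-values are two-sided and Benjamini-Hochberg adjusted over 13928 genes, with a threshold of 0.05. The steps were tested on simulated data. The 6 comparisons were the TAC effect in each genotype and averaged, the genotype effect within each surgery, and the interaction.

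Members, lists and tests were chosen with earlier results of these data known. Library values are given for Slc25a4, Slc25a20, the 8 most abundant members, each member past the threshold in any comparison and, where none passed, the smallest p; up to 4 examples a list were taken from those with the smallest p that passed. Slc25a33, Slc25a25, Slc25a5-ps, Rnf167, Lrig1, Dbp, Ucp3 and Ppargc1a were chosen after their values were seen. The values of 1 member are not reported here; it stays in the counts.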

Additional observations from a re-analysis of the deposited data

How the results depend on the processing

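No called value changed direction. The wild-type median over the 38 members, -0.16, was 0.01 when scaled to total reads. Under that scaling the wild-type median of all genes tested went from 0.01 to 0.20. In wild type the 7 calls became 2 when libraries were scaled to total reads and 0 with no filter on low values, with the 4 libraries compared alone, without replicate 1 of both WT groups, and without the 3 libraries low in Dbp. Leaving out 1 library at a time gave 0 to 8 calls, and 0 without each of WT TAC replicate 1, WT sham replicate 1, WT sham replicate 2, Cko sham replicate 1 and Cko sham replicate 2. In Piezo1-Cko the 0 calls became 0 to 1 with 1 library left out (Slc25a24 without Cko TAC replicate 2). In the mean TAC response the 14 calls became 8 with no filter, 8 without replicate 1 of both WT groups, and 0 without the 3 libraries low in Dbp, a fit with 1 residual degree of freedom in which 3 groups rest on 1 library assumed to vary like the others. Leaving out 1 library gave 5 to 15, the lowest being 5 without Cko sham replicate 1, 6 without Cko sham replicate 2, 7 without Cko TAC replicate 1 and 9 without WT TAC replicate 1 or WT sham replicate 2. Leaving aside the 5-library fit, Slc25a3, Slc25a11, Slc25a24, Slc25a26 and Slc25a34 kept their call in all 19 alternatives. Scaling to total reads kept 9 of the 14 and added Slc25a17, Slc25a30 and Slc25a44. The cause of these changes was not tested. The scaling to total reads and the 5-library fit were chosen after seeing the data. Labels number the libraries of each group, and with 2 numbers the correlations of same-numbered deviations were 0.0256 to 0.248, highest between WT sham and WT TAC, whose replicate 1 libraries are both low in Dbp. The labels do not say what a number shares, and it was not taken as a pairing; a fit with the replicate block gave 7 calls in wild type, 1 in Piezo1-Cko (Slc25a34) and 15 in the mean response. Counts for the genotype comparisons and the interaction were 0 under every alternative run. Members under about 100 reads, such as Slc25a47, are limited by depth.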
